A study of Mus musculus with 6 samples.

Results

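Genes of the insulin-like growth factor (IGF) system were followed in bulk RNA-seq libraries of newborn (postnatal day 0) mouse cells that the labels call dental epithelial. The 10 genes were chosen by name as IGF ligands (Igf1, Igf2), receptors (Igf1r, Igf2r) and binding proteins (Igfbp2 to Igfbp7). All 10 were among the 24959 genes of the deposited count table, and all 10 had enough reads to be among the 15930 genes tested. Conditional Pkm knockouts (Pkm cKO) gave 3 libraries, and controls, with the genotype WT in the labels, gave the other 3. The comparison addresses what the cells' transcripts do when Pkm is deleted. Pkm encodes the M-type pyruvate kinases, enzymes at the end of glycolysis. The sources used here give neither the Cre driver nor the deleted exon, and do not say whether tissue was pooled.

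IGF1 and IGF2 are small secreted proteins that promote growth and survival by activating IGF1R, a receptor tyrosine kinase that signals through IRS adaptors, PI3 kinase and AKT. IGF2R, also the mannose 6-phosphate receptor, has no kinase and carries IGF2 to lysosomes. IGF binding proteins hold the ligands outside cells, where they can prolong their life, keep them from the receptor or, once cut by proteases, release them. In mouse development Igf2 is transcribed from the paternal chromosome and its noncoding neighbour H19 from the maternal one.

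Total counts were 30588350, 33716938 and 39085792 in Pkm cKO replicates 1 to 3, and 38130829 to 39415700 in the controls. Levels are given as CPM, which are counts scaled to a common library size. Pkm itself stood at 309, 395 and 350 CPM in the cKO libraries, against 1281, 1185 and 1049 CPM in the controls (edgeR log2 fold change -1.74, SE 0.159, adjusted p 0.0109). That call was lost without control replicates 1, 2 and 3, with edgeR adjusted p of 0.0792, 0.0600 and 0.0790 at log2 fold changes of -1.67 to -1.82. Epithelial genes marked both groups: 12 of 12 epithelial markers were detected in every library, and their sum was 13220 to 14630 CPM in cKO libraries and 16670 to 19070 CPM in controls. Markers of mesenchyme and fibroblasts were abundant too, with a sum of 19350 to 40910 CPM in cKO libraries and 20150 to 31780 CPM in controls. Pkm cKO replicate 3 stood apart in skeletal muscle genes, whose 8 markers summed to 3067 CPM there, against 82.2 and 18.7 CPM in cKO replicates 1 and 2 and 4.67 to 6.81 CPM in the controls. The log2 fold changes of the 10 genes, and those of some pathway genes, are therefore also given without that library.

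Among the 10 genes, Igfbp4 rose in the cKO libraries and passed the test over all genes (edgeR quasi-likelihood test, Benjamini-Hochberg adjusted p under 0.05). It was the 1 gene of 10 called, higher in cKO, where 0.345% of all tested genes were called higher and 0.207% lower. The other 9 did not pass. Of these, 7 had a log2 fold change above 0 and 2 had one below 0. The median log2 fold change of the 10 genes was 0.71, beside 0.0068 for all tested genes, and 0.24 without Pkm cKO replicate 3. The groups did not overlap for 6 genes that were higher in cKO (Igf1, Igf2, Igf2r, Igfbp3, Igfbp4 and Igfbp7) and for 1 that was lower (Igfbp2), where 11.2% of all tested genes were higher without overlap and 12.2% lower. Pkm cKO replicate 3 was the highest of the 6 libraries for 8 of the 10 genes, as it was for 23.9% of all tested genes. At an unadjusted p under 0.05 in edgeR, 5 of the 10 were higher (Igf1, Igf2, Igf2r, Igfbp3 and Igfbp4) and 0 lower, where 9.57% of all tested genes were higher and 7.9% lower (17.5% in either direction). In bulk samples fewer cells of a type and less RNA per cell cannot be told apart.

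**Figure D1:**
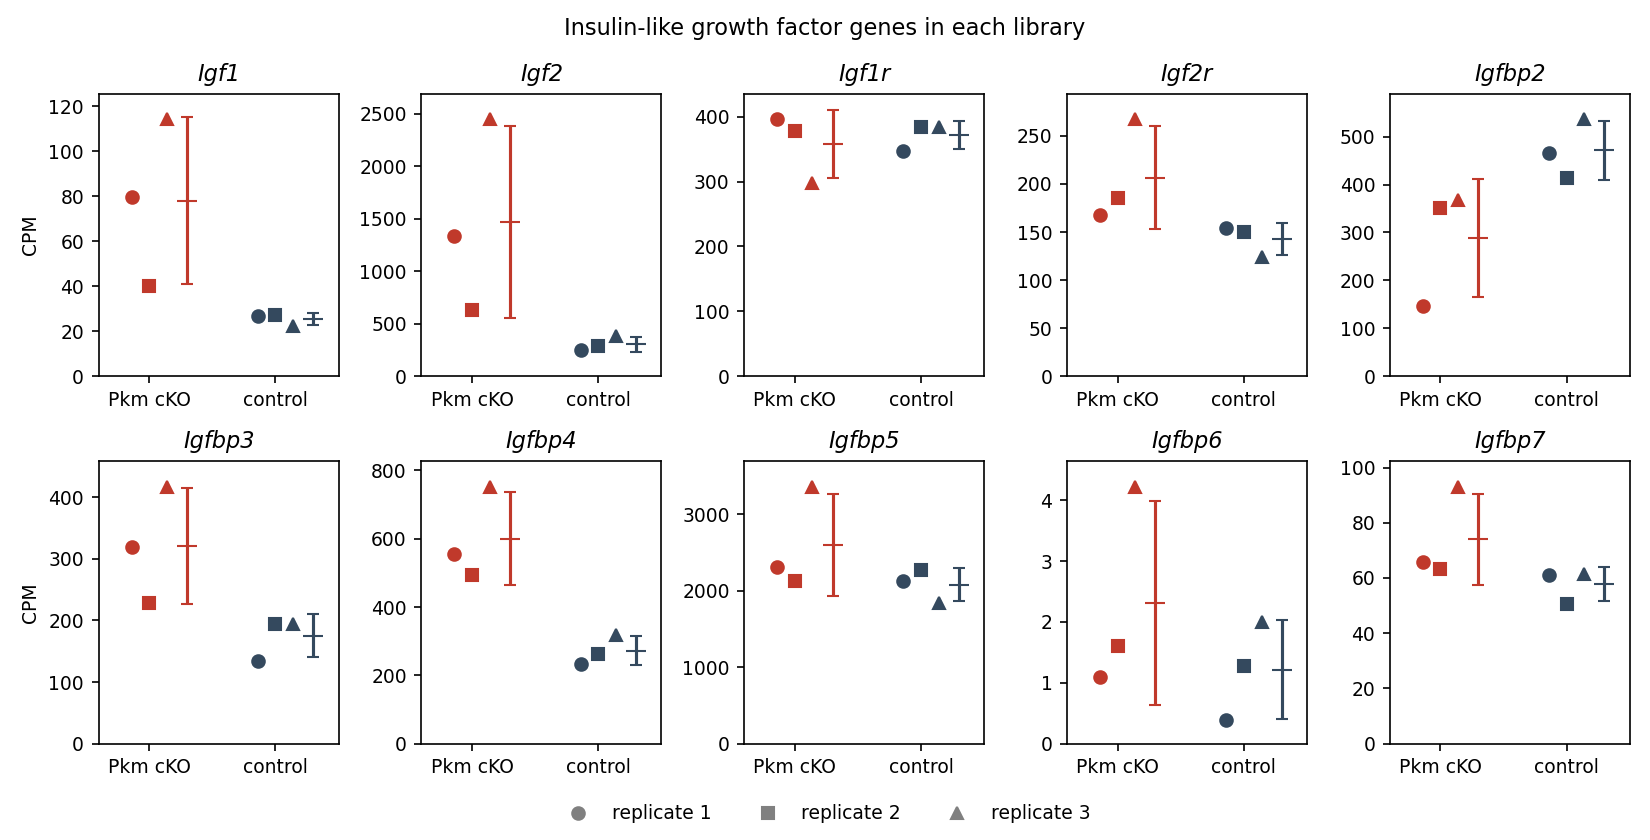
Level of the 10 genes in CPM on linear axes from 0, with Pkm cKO libraries on the left of each panel and controls on the right, 1 symbol per replicate, and the mean ± SD beside them (n = 3 each). Igfbp4 lies at 494 to 753 CPM in cKO libraries and 234 to 318 CPM in controls, and the triangle of cKO replicate 3 is the highest point for 8 of the 10 genes.

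The ligand Igf2, the main IGF of fetal growth, had 1332, 634 and 2446 CPM in Pkm cKO replicates 1 to 3, against 244, 286 and 381 CPM in control replicates 1 to 3. The lowest cKO library was above the highest control, and the cKO libraries spread over a wider range than the controls. The means were 1471 ± 914 CPM in cKO libraries and 303.8 ± 69.9 CPM in controls (SD, n = 3 each). The log2 fold change was 2.28 (SE 0.498), and the edgeR adjusted p was 0.106, so Igf2 did not pass. Of all tested genes, 1.63% had a higher log2 fold change. Without Pkm cKO replicate 3 the log2 fold change of Igf2 was 1.71 (SE 0.311, edgeR adjusted p 0.0557), and without replicate 2 it was 2.64 (SE 0.291, edgeR adjusted p 0.0164), which passed.

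Igf1, the ligand that growth hormone induces after birth, was less abundant. It stood at 79.6, 40.2 and 114 CPM in the cKO libraries and at 26.7, 27.3 and 22.4 CPM in the controls. As for Igf2, cKO replicate 3 was the highest, cKO replicate 2 was the lowest of the cKO group, and the groups did not overlap. The means were 78.0 ± 37.1 CPM in cKO libraries and 25.4 ± 2.67 CPM in controls (SD, n = 3 each). The log2 fold change was 1.62 (SE 0.338) with an edgeR adjusted p of 0.0808. It passed without Pkm cKO replicate 2 (log2 fold change 1.93, edgeR adjusted p 0.00867) and did not pass without replicate 3 (1.25, edgeR adjusted p 0.0696). DESeq2 called both ligands, with adjusted p of 7.6e-05 for Igf1 and 5.8e-07 for Igf2, in a test that called 6.89% of all tested genes. EdgeR called 1.13% of all genes tested without cKO replicate 2 and 0.77% without replicate 3.

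The sequences before the transcription starts of these ligands are shown because both genes differed most in size between the groups among the 10. RefSeq's promoter table (build GRCm38.p6) holds 1 start for Igf1 and 4 for Igf2. The 250 bases before the Igf1 start (chr10:87860861-87861110, plus strand) and before the most downstream Igf2 start (chr7:142657497-142657746, minus strand) were searched on both strands for the motifs TATAAA, then CCAAT, then GGGCGG, and matches are in capitals.
Igf1: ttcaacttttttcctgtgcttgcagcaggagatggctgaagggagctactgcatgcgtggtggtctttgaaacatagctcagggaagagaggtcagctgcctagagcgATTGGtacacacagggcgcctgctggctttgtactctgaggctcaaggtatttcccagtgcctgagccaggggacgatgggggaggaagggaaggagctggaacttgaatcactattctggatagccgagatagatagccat
Igf2: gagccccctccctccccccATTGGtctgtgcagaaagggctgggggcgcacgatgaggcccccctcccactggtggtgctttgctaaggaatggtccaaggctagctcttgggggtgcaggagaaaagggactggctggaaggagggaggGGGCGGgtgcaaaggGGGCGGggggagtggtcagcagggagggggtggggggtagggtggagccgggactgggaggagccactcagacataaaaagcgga
The Igf1 window held 1 match to CCAAT, read as ATTGG, which begins 142 bases before the start. The Igf2 window held GGGCGG beginning 100 and 85 bases before the start and ATTGG beginning 231 bases before it. With the Igf2 starts numbered from upstream, the windows of starts 1 and 2 held no match. That of start 3 held GGGCGG, read as CCGCCC, beginning 17 bases before the start. Which start the cells used was not tested. Of all 32851 promoter windows of the same length in the table, 12.4% held TATAAA, 33.8% held CCAAT and 32.7% held GGGCGG, counting either strand. A match describes these letters and is not a measured binding site.

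H19, a noncoding RNA gene close to Igf2 on chromosome 7 that shares enhancers with it, had a similar profile. It stood at 1851, 1024 and 4093 CPM in the cKO libraries and at 366, 549 and 731 CPM in the controls and did not pass (edgeR log2 fold change 2.08, SE 0.565, adjusted p 0.159), nor did it without cKO replicate 3 (1.40, edgeR adjusted p 0.0900). Both genes were highest in cKO replicate 3 and lowest in control replicate 1. The ratio of Igf2 to H19, per length of exon, was 0.309, 0.266 and 0.257 in cKO libraries and 0.287, 0.224 and 0.224 in controls, so it overlapped between the groups and moved far less than either gene. Igf2os, a transcript from the opposite strand of the Igf2 locus, stood at 2.39, 3.02 and 15.3 CPM in cKO libraries and 1.36, 1.22 and 1.04 CPM in controls, and was named after its values were seen. The strand setting of the counting is not stated, so reads of the 2 genes where they overlap cannot be told apart. Igf2os counts were 0.179% to 0.625% of Igf2 counts, which does not show how many Igf2 reads were affected.

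**Figure D2:**
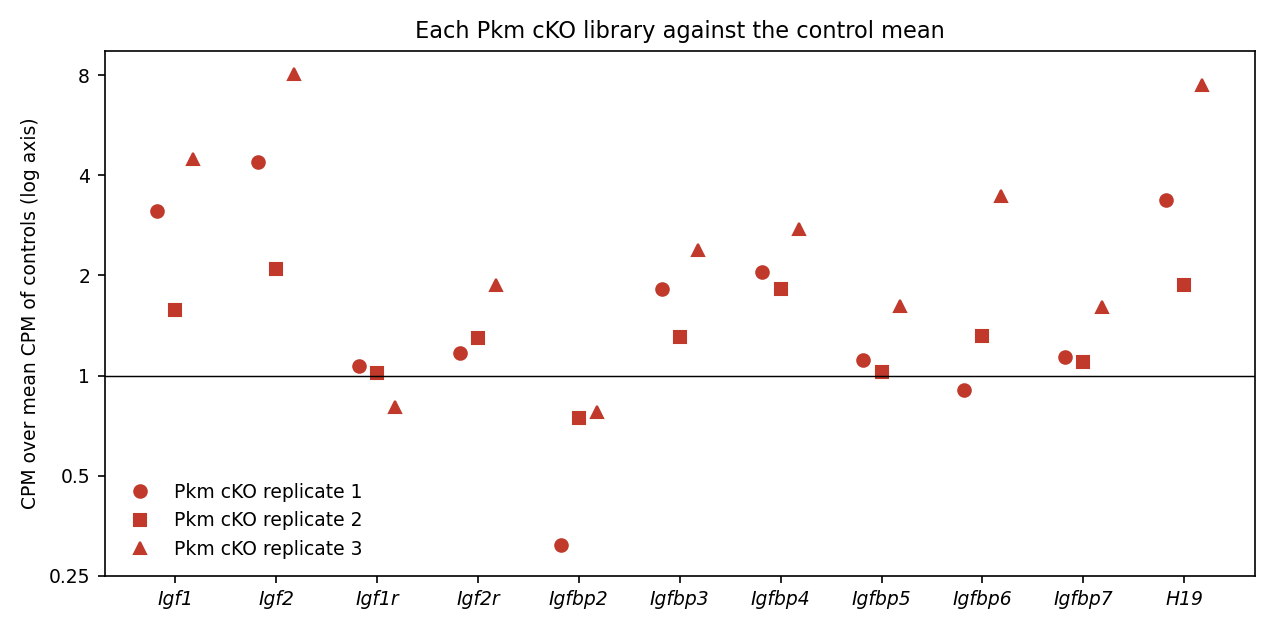
CPM of each Pkm cKO library divided by the mean of the 3 controls, on a log axis, for the 10 genes and H19, with 1 symbol per cKO replicate and a line at 1. Igf2 lies at 4.38, 2.09 and 8.05 in replicates 1 to 3 and H19 at 3.37, 1.87 and 7.46, while Igfbp2 lies below 1 in all 3.

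The receptors differed less than the ligands. Igf1r had 396, 378 and 298 CPM in cKO libraries and 347, 384 and 384 CPM in controls. The groups overlapped, and cKO replicate 3, which was highest for both ligands, was the lowest of the 6. The means were 358 ± 52.2 CPM in cKO libraries and 372 ± 21.1 CPM in controls (SD, n = 3 each). The log2 fold change was -0.06 (SE 0.154, edgeR adjusted p 0.884) and turned to 0.07 (SE 0.144) without cKO replicate 3. Igf2r had 167, 185 and 267 CPM in cKO libraries and 154, 150 and 124 CPM in controls. Its groups did not overlap, but its log2 fold change of 0.53 (SE 0.195) did not pass (edgeR adjusted p 0.205) and was 0.31 without cKO replicate 3. Airn, the noncoding antisense RNA of the Igf2r locus, was named after its values were seen and stood at 5.36, 5.09 and 8.02 CPM in cKO libraries and 6.13, 5.62 and 6.15 CPM in controls.

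Of the 6 binding proteins, Igfbp4, which mostly restrains IGF action and is cut by the protease PAPP-A, was the member called. It had 556, 494 and 753 CPM in the cKO libraries, against 234, 264 and 318 CPM in the controls. Every cKO library was above every control, and the cKO values lay closer together than those of the ligands. The means were 601 ± 135 CPM in cKO libraries and 272 ± 42.5 CPM in controls (SD, n = 3 each), so Igfbp4 rose 2.21-fold (log2 fold change 1.14, SE 0.194, edgeR adjusted p 0.0467). The call held when any 1 cKO library was left out, with edgeR adjusted p of 0.0254, 0.0304 and 0.0413 and log2 fold changes of 1.19, 1.27 and 0.96 without cKO replicates 1, 2 and 3, where 3.92%, 1.13% and 0.77% of all genes tested were called. It held with upper-quartile scaling (0.0393, 0.471% of all genes called) and with the replicate number as a block (0.00786, 4.44% called). It was lost without control replicates 1, 2 and 3 (0.260, 0.211 and 0.167), where edgeR called 0 genes in all (1532, 1766 and 2495 genes had an unadjusted p under 0.05). It was also lost in limma-voom (0.0730) and in edgeR without robust estimation (0.0682), each of which called 2 genes (0.0126% of those tested).

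Igfbp2, a binding protein abundant in many fetal tissues, went the other way. It had 146, 352 and 367 CPM in cKO libraries and 466, 414 and 536 CPM in controls. The groups did not overlap, and cKO replicate 1 was the lowest, far below the other 2. The means were 288 ± 123 CPM in cKO libraries and 472 ± 61.6 CPM in controls (SD, n = 3 each), and the log2 fold change of -0.71 (SE 0.323) did not pass (edgeR adjusted p 0.306). It was -0.40 without cKO replicate 1 and -0.92 without cKO replicate 3.

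The windows before the starts of Igfbp4 and Igfbp2 are shown because these binding proteins lay on opposite sides of the controls, from the same table and search. They cover chr11:99040994-99041243 (plus strand) for Igfbp4 and chr1:72824230-72824479 (plus strand) for the first of the 2 Igfbp2 starts.
Igfbp4: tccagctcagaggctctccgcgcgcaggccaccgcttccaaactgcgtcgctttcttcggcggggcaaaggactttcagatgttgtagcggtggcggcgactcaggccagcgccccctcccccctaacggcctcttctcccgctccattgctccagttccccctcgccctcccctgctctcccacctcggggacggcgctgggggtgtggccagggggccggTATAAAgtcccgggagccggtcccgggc
Igfbp2: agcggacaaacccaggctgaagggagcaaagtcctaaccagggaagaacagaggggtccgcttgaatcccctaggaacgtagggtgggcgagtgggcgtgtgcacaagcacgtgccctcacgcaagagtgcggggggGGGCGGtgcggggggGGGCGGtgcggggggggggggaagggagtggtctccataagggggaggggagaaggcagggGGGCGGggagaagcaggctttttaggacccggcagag
The Igfbp4 window held TATAAA beginning 28 bases before the start and no match to CCAAT or GGGCGG. The Igfbp2 window held GGGCGG beginning 113, 98 and 37 bases before the start and no match to TATAAA or CCAAT. The window of the other Igfbp2 start held no match to any of these motifs. Over the 14 starts of the 10 genes in the table, 2 windows held TATAAA, 3 held CCAAT and 6 held GGGCGG.

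Igfbp5, the binding protein with the most reads and a neighbour of Igfbp2 on chromosome 1, had 2317, 2128 and 3361 CPM in cKO libraries and 2129, 2269 and 1841 CPM in controls. By reads it ranked 11th of all tested genes in cKO libraries and 23rd in controls. The groups overlapped, and the log2 fold change was 0.32 (SE 0.194, edgeR adjusted p 0.426) and 0.11 without cKO replicate 3. Igfbp3, the main carrier of IGFs in adult blood, stood at 319, 229 and 417 CPM in cKO libraries and 135, 195 and 195 CPM in controls. Its groups did not overlap, and its log2 fold change of 0.88 (SE 0.234) did not pass (edgeR adjusted p 0.111). Without cKO replicate 3 it was 0.66 (edgeR adjusted p 0.156). DESeq2 called Igfbp3 with an adjusted p of 0.0147, where 6.89% of all tested genes were called, and edgeR did so with every gene of at least 1 read included (0.0318, 2.08% called).

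Igfbp7, which binds IGFs weakly and is common in vessel walls, had 65.7, 63.3 and 93.1 CPM in cKO libraries and 61.2, 50.6 and 61.5 CPM in controls. The groups were apart by a narrow gap, and the log2 fold change was 0.36 (SE 0.184, edgeR adjusted p 0.348) and 0.17 without cKO replicate 3. Igfbp6, which prefers IGF2, was nearly silent, with 34, 55 and 170 reads in cKO libraries and 14, 49 and 77 reads in controls. Its groups overlapped, and the log2 fold change of 0.92 had an SE of 0.670 (edgeR adjusted p 0.517) and was 0.16 without cKO replicate 3.

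**Figure D3:**
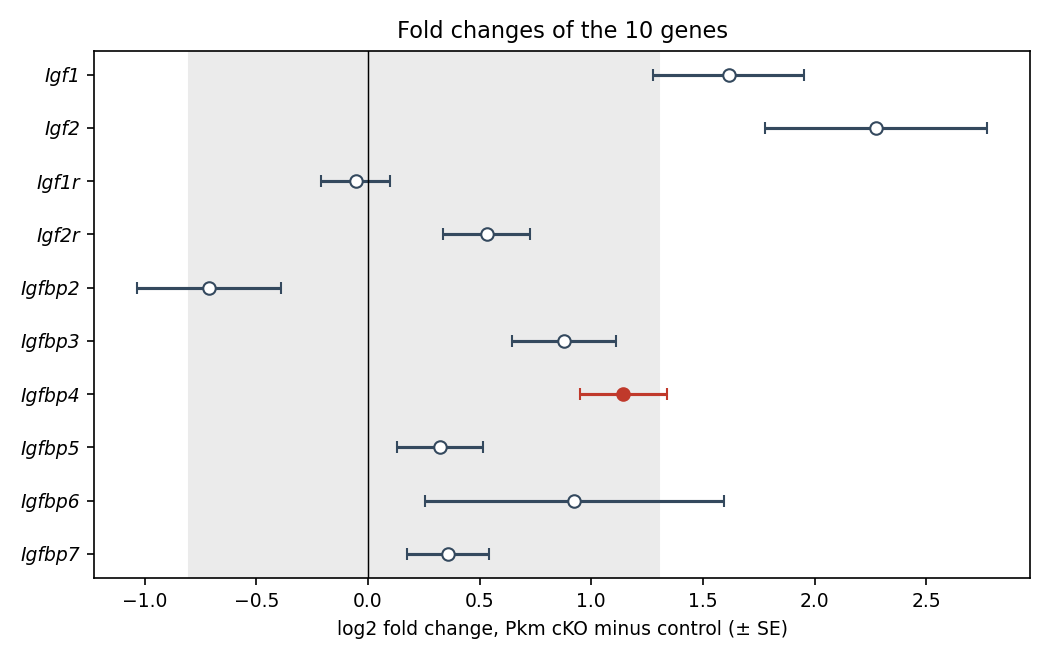
Log2 fold change of Pkm cKO minus control with its SE for the 10 genes, with a filled point for the gene called and open points for the others. The grey band spans the 5th to 95th percentile of all tested genes, -0.80 to 1.31, and Igf1 and Igf2 lie above it at 1.62 and 2.28.

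Levels of different genes were set side by side per kb of exon, as CPM divided by the length of all exons of the gene in GENCODE M21. That length joins the exons of all annotated transcripts and can exceed that of the transcripts in use. Ranks and ratios between genes depend on it. In cKO libraries Igfbp5 was the highest of the 10 (433 ± 111 CPM per kb), followed by Igf2 (257 ± 160), Igfbp2 (156 ± 66.8), Igfbp4 (136 ± 30.6) and Igfbp3 (103 ± 30.1, SD, n = 3 each). In controls Igfbp5 was also the highest (346 ± 36.3 CPM per kb), followed by Igfbp2 (256 ± 33.3), Igfbp4 (61.6 ± 9.62), Igfbp3 (55.9 ± 11.1) and Igf2 (53.1 ± 12.2, SD, n = 3 each). In controls the ranges of Igfbp4, Igfbp3 and Igf2 overlapped, so their order is not settled, while those of Igfbp5 and Igfbp2 lay apart from each other and from the rest. Igf2 thus stood second by mean in cKO libraries and behind Igfbp3 in controls, although its cKO range of 111 to 427 CPM per kb overlapped those of its neighbours. Igfbp7, Igf1r and Igf2r had means of 61.2, 21.3 and 22.2 CPM per kb in cKO libraries and 47.8, 22.1 and 15.3 CPM per kb in controls. By mean, Igf2r was above Igf1r in cKO libraries and below it in controls. The range of Igfbp7 overlapped that of Igfbp3 in both groups. In controls, at 41.9 to 50.9 CPM per kb, it also overlapped that of Igf2, so its place there is not settled. Igf1 (7.87 CPM per kb in cKO libraries and 2.57 in controls) and Igfbp6 (2.07 and 1.09) were the lowest.

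The makeup of the binding protein pool differed along with these levels. Igfbp5 made up 51.6%, 45.2% and 49.0% of the 6 binding proteins per kb of exon in cKO libraries and 47.0%, 49.3% and 39.1% in controls, and the groups overlapped. Igfbp2 made up 10.6%, 24.3% and 17.4% in cKO libraries, against 33.5%, 29.2% and 37.1% in controls. Igfbp4 made up 16.8%, 14.3% and 14.9% in cKO libraries, against 7.03%, 7.79% and 9.18% in controls. The summed ligands per summed binding proteins, per kb of exon, came to 0.322, 0.146 and 0.384 in cKO libraries and 0.0602, 0.0688 and 0.0878 in controls. These are transcript ratios from values already given and were not tested.

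Other genes of the pathway were taken from 10 lists with 57 genes, of which 56 were in the table and 51 were tested. None of the 51 passed in edgeR, where 0.552% of all tested genes were called in either direction, and 10 higher and 6 lower in cKO libraries had an unadjusted p under 0.05, where 9.57% of all tested genes were higher and 7.9% lower. The groups did not overlap for 10 that were higher and 8 that were lower, beside 11.2% and 12.2% of all tested genes. DESeq2 called 7 of them, 6 higher and 1 lower, in a test that called 6.89% of all tested genes. Their median log2 fold change was 0.16, and 0.0029 without Pkm cKO replicate 3, where 2 were called (Pappa2 and Cdkn1c) and 0.77% of all genes were. These counts cover genes that act at different steps, and the steps are described in turn.

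At the level of ligand release, Pappa2, a protease that cuts IGFBP3 and IGFBP5, stood at 10.7, 4.91 and 81.1 CPM in cKO libraries and 1.61, 1.73 and 1.79 CPM in controls. Its groups did not overlap. Replicate 3 of cKO was far above the other 2, and its log2 fold change of 4.23 (SE 1.26) did not pass (edgeR adjusted p 0.206). Without cKO replicate 3 it was 2.20 and passed (edgeR adjusted p 0.0413). Stc2, an inhibitor of PAPP-A, stood at 2.26, 7.73 and 3.25 CPM in cKO libraries and 1.06, 1.94 and 1.38 CPM in controls (edgeR adjusted p 0.154). Pappa, the gene of PAPP-A, did not pass the read filter and was not in the main test. EdgeR called it higher in cKO with every gene of at least 1 read included, where 2.08% of all genes were called. It was also called higher without cKO replicate 2, where 1.13% were. Igfbp1, which lies beside Igfbp3 on chromosome 11, had at most 1 read in any library and was not tested. Igfbpl1, an IGFBP-related secreted protein, had a log2 fold change of 0.43 (edgeR adjusted p 0.421), and Igfals, which stabilises IGF complexes in blood, stayed under 1 CPM in every library (0.56, edgeR adjusted p 0.705).

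Among receptors and adaptors, the insulin receptor gene Insr stood at 81.6, 37.5 and 45.0 CPM in cKO libraries and 94.1, 87.7 and 67.4 CPM in controls, and the groups overlapped (log2 fold change -0.60, edgeR adjusted p 0.312). Grb10, an imprinted adaptor that dampens insulin and IGF receptor signalling, stood at 143, 108 and 281 CPM in cKO libraries and 72.1, 79.2 and 79.2 CPM in controls (log2 fold change 1.21, SE 0.324, edgeR adjusted p 0.127; 0.72 without cKO replicate 3, edgeR adjusted p 0.0740). Grb2, the adaptor to the RAS branch, averaged 118 ± 0.644 CPM in cKO libraries and 153 ± 9.66 CPM in controls (SD, n = 3 each, log2 fold change -0.38, edgeR adjusted p 0.188). Neither adaptor passed, and the groups did not overlap for either.

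Downstream, the PI3 kinase genes Pik3cb (log2 fold change -0.58) and Pik3r1 (-0.48) had the lowest p of their list, each with an edgeR adjusted p of 0.205 to 0.207. In the mTOR branch the same place was taken by Eif4ebp1, a brake on translation (log2 fold change 0.72, edgeR adjusted p 0.283), and Deptor, an mTOR inhibitor (0.92, edgeR adjusted p 0.292). Foxo1, a transcription factor that AKT keeps out of the nucleus, had 78.9, 90.8 and 88.8 CPM in cKO libraries and 211, 148 and 119 CPM in controls. The groups did not overlap, and its log2 fold change of -0.89 (SE 0.206, edgeR adjusted p 0.0849) was the lowest of the 51. Of the FOXO list, Foxo4 came next by p (log2 fold change 0.23, edgeR adjusted p 0.483).

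In the growth hormone list, Stat5a (log2 fold change 0.75, edgeR adjusted p 0.185) and Socs3 (0.58, edgeR adjusted p 0.191) had the lowest p. Of the genes for proteins that bind Igf2 mRNA, Igf2bp3 averaged 52.2 ± 9.04 CPM in cKO libraries and 76.5 ± 2.37 CPM in controls (SD, n = 3 each), without overlap (log2 fold change -0.55, SE 0.161, edgeR adjusted p 0.130). Igf2bp2 had a log2 fold change of 0.26 (edgeR adjusted p 0.421).

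Each of the 7 imprinted growth genes listed had a positive log2 fold change (median 1.21), as did 50.8% of all tested genes. In edgeR 0 passed and 3 had an unadjusted p under 0.05, where 9.57% of all tested genes were higher at that p. DESeq2 called H19, Cdkn1c and Plagl1, where it called 6.89% of all tested genes. Without Pkm cKO replicate 3 the median was 0.51, and 5 of the 7 were above 0: Peg3 turned to -0.26 and Mest to -0.04. Meg3, counted as above 0, fell from 1.21 to 0.0069 and so was flat. Dlk1 fell from 2.32 to 0.58 and Plagl1 from 1.37 to 0.51. Meg3 and Dlk1 were named after their values were seen. Cdkn1c, a cell-cycle inhibitor of the same chromosome 7 region as Igf2 that is expressed from the maternal copy, came nearest to passing. It stood at 206, 240 and 400 CPM in cKO libraries and 122, 125 and 125 CPM in controls (log2 fold change 1.19, SE 0.231, edgeR adjusted p 0.0597). Cdkn1c passed without cKO replicate 3 (0.85, edgeR adjusted p 0.0366). The groups did not overlap for Cdkn1c, H19 and Plagl1, where 11.2% of all tested genes were higher without overlap. They did for the other 4. The summed level of the 7 was 2642, 1795 and 6626 CPM in cKO libraries and 1006, 1293 and 1423 CPM in controls, so cKO replicate 3 was again the highest.

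The tested genes whose profile over the 6 libraries was most like that of a ligand or of Igfbp4 were named by the smallest mean absolute difference in centred log2 CPM, among 11354 genes with a mean of at least 5 CPM. For Igf2 they were Cyp26b1, which breaks down retinoic acid (a difference of 0.12 log2 units), Crispld2, a secreted protein (0.14), and H19 (0.15). For Igf1 they were Tgm2, a transglutaminase (0.11), Fap, a surface protease of activated fibroblasts (0.12), and Pde7b, a phosphodiesterase (0.12). For Igfbp4 they were Clec11a, a secreted lectin-domain growth factor (0.08), Csf1, the growth factor of macrophages (0.09), and Galnt18, a glycosyltransferase (0.10). Crispld2 at 42.4, 24.6 and 67.6 CPM in cKO libraries and 6.67, 8.13 and 11.1 CPM in controls shows how close the match was.

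Markers of other cell types also varied between the libraries, and not all in the same way. In the cKO group the summed skeletal muscle, macrophage and endothelial markers were each highest in replicate 3 and lowest in replicate 2. So were 6 of the 10 genes (Igf1, Igf2 and Igfbp3, 4, 5 and 7), an order found in 20.1% of all tested genes. The mesenchyme, ameloblast, odontoblast, epithelial and pericyte sums did not have this order. The muscle markers Myh3 and Myog were at 0 in at least 1 library each, while the most abundant, Acta1, stood at 41.7, 8.37 and 769 CPM in cKO libraries and 1.03, 0.259 and 0.649 CPM in controls. The 10 macrophage markers all had log2 fold changes above 0, as did 50.8% of all tested genes. They summed to 208, 122 and 210 CPM in cKO libraries and 69.2, 73.3 and 66.1 CPM in controls. C1qc was called higher, where 0.345% of all tested genes were. The endothelial sum was 463, 443 and 766 CPM in cKO libraries and 495, 420 and 479 CPM in controls, with 0 of 10 markers called. The sum of 9 pericyte and smooth muscle markers was 628 to 889 CPM in cKO libraries and 711 to 835 CPM in controls, and that of 4 odontoblast markers 389 to 3713 CPM in cKO libraries and 2557 to 5480 CPM in controls, with 0 called in either list.

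Of 13 tested mesenchyme and fibroblast markers, 11 had log2 fold changes above 0, beside 50.8% of all tested genes. Of the 11, 9 had an unadjusted p under 0.05 in edgeR, where 9.57% of all tested genes were higher, and 0 were called. The most abundant markers, the collagen genes Col1a1 (log2 fold change -0.09) and Col1a2 (-0.14), carried most of the sum. Col1a1 was lowest in cKO replicate 3, at 27446, 16849 and 9097 CPM in cKO libraries and 20987, 22004 and 13691 CPM in controls. Col3a1, Prrx1 and Twist1, named after their values were seen, were higher in every cKO library than in any control. Col3a1 stood at 1054, 772 and 3374 CPM in cKO libraries and 431, 463 and 478 CPM in controls. Levels were also set per 1000 CPM of the summed list, and so mainly of Col1a1 and Col1a2. Igf2 then stood at 26.8 to 126 in cKO libraries and 7.96 to 18.9 in controls. Igf1 stood at 1.70 to 5.91 in cKO libraries and 0.859 to 1.11 in controls. Both were without overlap, on a scale that does not follow the mesenchyme markers that were higher in cKO libraries. On this scale the groups overlapped for Igfbp4, at 13.6 to 38.9 in cKO libraries and 7.62 to 15.8 in controls, and for Igfbp2, at 3.57 to 18.97 in cKO libraries and 13.0 to 26.6 in controls. Ameloblast markers were lower in the cKO group for 8 of 8 genes, with Odam called, where 0.207% of all tested genes were called lower. They summed to 5585, 729 and 361 CPM in cKO libraries and 25370, 22190 and 10760 CPM in controls. Epithelial markers summed lower in every cKO library than in any control, with 0 of 12 called. At an unadjusted p under 0.05 in edgeR 5 were lower, where 7.9% of all tested genes were. The part of these other cells in the values of the IGF genes was not tested.

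**Figure D4:**
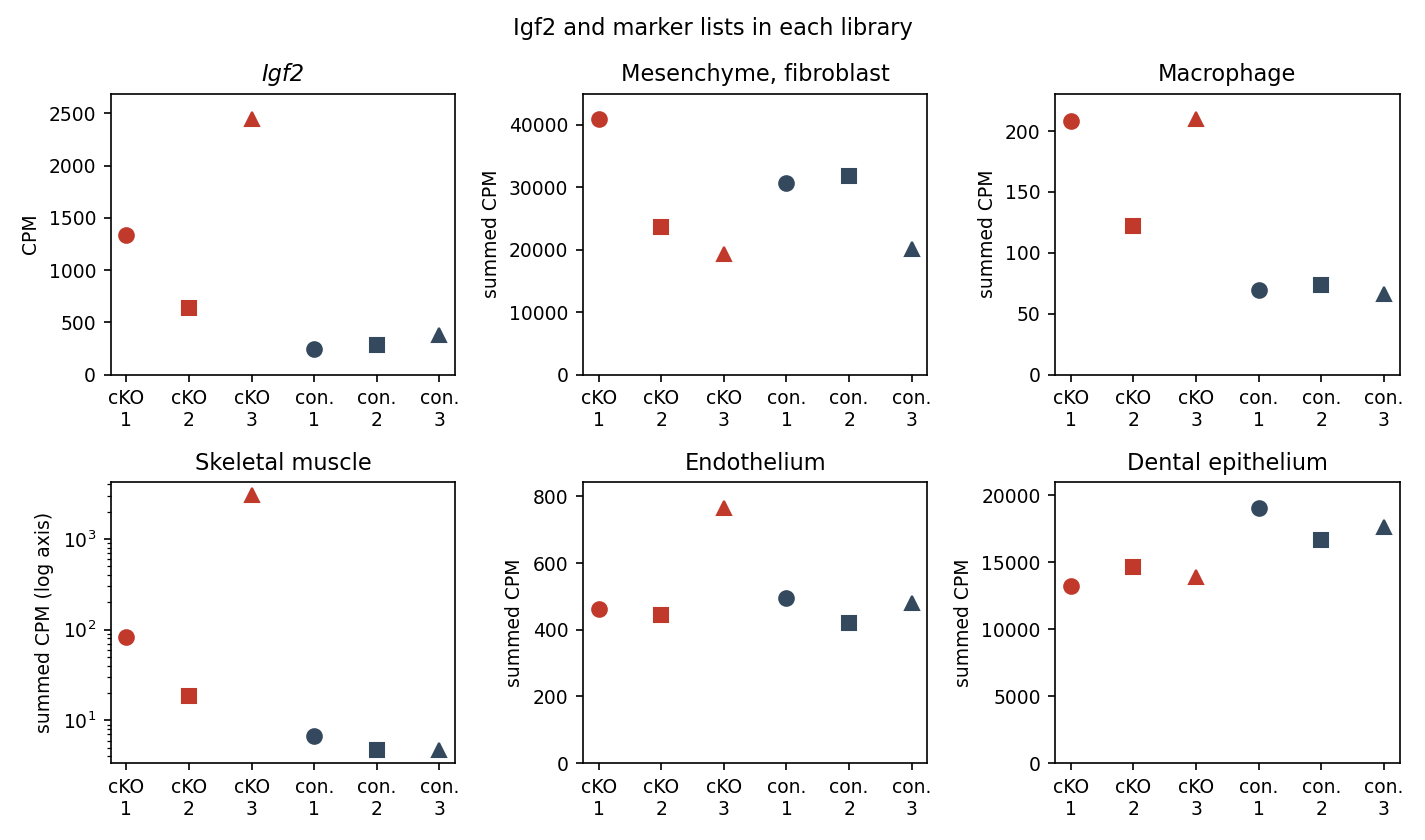
Igf2 in CPM and the summed CPM of 5 marker lists in each library, with Pkm cKO libraries to the left of the controls ("con."). All axes start at 0 except the log axis for skeletal muscle, where cKO replicate 3 lies at 3067 CPM and the controls at 4.67 to 6.81 CPM.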

How the data were processed

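Bulk RNA-seq of 6 libraries was used. The counts deposited by the authors are raw whole numbers, 1 row a gene and 1 column a library. The submitters' processing notes name fastp, HISAT2 and build mm39 without versions. How reads were assigned to genes (program, strand, annotation) is not stated in the sources used here. Groups and replicate numbers came from the labels, and each column was matched to a sample by its group and number. The labels call the replicates biological but do not say that they were separate animals, so the p-values cover only spread among the libraries, which may be technical.

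Genes were kept by filterByExpr, scaled by TMM and compared with edgeR's quasi-likelihood test (robust, edgeR 4.0.16, R 4.3.3), two-sided, with Benjamini-Hochberg adjustment over all tested genes and a threshold of 0.05. SE was taken as the absolute log2 fold change over the root of F. Alternatives were DESeq2 size factors, upper-quartile scaling, every gene with at least 1 read, each library left out, DESeq2 1.42.0, edgeR without robust estimation, limma-voom (limma 3.58.1) and a block for the replicate number. The test was checked on simulated counts. No libraries were duplicates, with a chi-square per gene of at least 20.9 between any pair. At these depths counting error is small beside the spread between libraries (biological coefficient of variation 0.300), except for genes with few reads.

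The 10 genes, the pathway and marker lists and the tests were chosen with earlier results of these data known. The text names all 10 genes, Pkm, up to 2 genes of each list with the lowest p or (for markers) the highest CPM, genes called, and the 3 most alike genes of Igf1, Igf2 and any member called, unless it says otherwise. Promoter sequences and exon lengths came from RefSeq and GENCODE tables of build GRCm38, not the authors' build, matched by symbol for all 10 genes.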

Additional observations from a re-analysis of the deposited data

How the results depend on the processing

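The 88 genes called in all (55 higher and 33 lower in cKO) became 55 with DESeq2 size factors (39 higher and 16 lower), 518 with every gene of at least 1 read, 1098 with DESeq2, and 2 with limma-voom or without robust estimation. Leaving out 1 library gave 0 to 640 calls over all genes and 0 to 3 among the 10 IGF genes. Upper-quartile scaling gave 57 higher and 18 lower. Of the 10 genes, 1 was called in the reported edgeR test, 2 with every gene of at least 1 read, 4 with DESeq2 (Igf1, Igf2, Igfbp3 and Igfbp4), and 0 with limma-voom or without robust estimation. Of the pathway genes, 0 were called in that test, 3 with every gene of at least 1 read, 7 with DESeq2 and 0 to 3 with 1 library left out. Pkm kept its direction with log2 fold changes of -1.82 to -1.66 when 1 library was left out and lost its call without any 1 control. Igf1r ranged from -0.14 to 0.0693 when 1 library was left out, with the sign change to 0.0693 without Pkm cKO replicate 3. The other 9 IGF genes kept their direction in all 13 alternatives.

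The replicate numbers were not shown to pair the samples: deviations of same-numbered libraries correlated at 0.235, 0.015 and 0.215, and cKO replicate 2 correlated best with another number. With the replicate block edgeR called 708 genes, 3 of the IGF genes (Igf2, Igfbp3 and Igfbp4) and 3 pathway genes. With 3 libraries a group an exact permutation test cannot go below a p of 0.10. The cause of these changes was not tested.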
